A study of Mus musculus with 12 samples.

Results

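Whether the adrenal response to aspartame was the same with and without blockade of NMDA receptors during development was examined across all 12 arrays of the series, 3 for each of 4 RNA pools. Aspartame (ASP) is a sweetener made of aspartic acid and phenylalanine, and CGP 39551 (CGP) competes with glutamate for the NMDA receptor and blocks it. For each gene the aspartame difference with CGP 39551 (ASP+CGP minus CGP) was compared with the aspartame difference without it (ASP minus CON), and the difference between both, the interaction, was computed on the log2 scale from the pool means. An interaction of 0 means that the effects of both treatments added up. A negative interaction means that the ASP+CGP pool lay below the sum of the separate effects, and a positive one that it lay above.

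The mice were male C57Bl/6J, 21 weeks old, and the tissue was the adrenal gland. CON mice received neither agent. CGP mice were exposed to CGP 39551 during development only, through dams dosed at 5 mg per kg of the dams' body weight. ASP mice had aspartame from life in utero onwards, at an intake given as 46 mg per kg, and ASP+CGP mice had both agents. RNA of the mice of a group was combined into 1 pool, which was hybridised 3 times to Affymetrix Mouse Gene 1.0 ST arrays. The errors and p-values below therefore cover repeated hybridisations of the same RNA, with no measure of how mice vary, and a difference between pools cannot be told apart from what entered a single pool.

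The adrenal gland joins a cortex, whose cells make steroid hormones from cholesterol, to a medulla of chromaffin cells, which make adrenaline and noradrenaline and descend from the neural crest. NMDA receptors are glutamate-gated calcium channels built of several subunits and act mainly in the brain, where glutamate excites and GABA inhibits neurons. Hepatocytes, the main cells of the liver, make most plasma proteins and the enzymes that break down drugs, bile acids and amino acids.

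Adrenal markers were high on every array, with Star, the cholesterol carrier that starts steroid synthesis, between 13.38 and 13.67 log2 units and Th, the first enzyme of catecholamine synthesis, between 12.93 and 13.42. Arrays of 1 pool correlated across probe sets with r of 0.989 to 0.995. The ASP+CGP arrays had a narrower spread of signals than the others, with interquartile ranges of 2.20 to 2.29 against 2.58 to 2.62 in CON. Of 16244 genes in the table, 15900 reached a mean of 6 in at least 1 pool and were tested. In bulk RNA, fewer cells of a type and less RNA per cell cannot be told apart.

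The aspartame difference was not the same in both arms for a large part of the genes measured. The interaction was called in 3906 of 15900 genes, 24.6% of those tested, at a limma adjusted p under 0.05 and at least 1.4-fold. It was negative in 2472 genes (15.5%) and positive in 1434 (9.02%), and the median over all genes tested was -0.03. Large departures from additivity were nearly all negative, with 954 genes past 2-fold downwards against 49 upwards, and 236 past 4-fold downwards against 1 upwards. Every called gene kept its sign when the same contrast was taken on unlogged signals. Scaling mattered for the positive direction: after cyclic loess 729 genes were positive and 2427 negative, which put the positive share of the calls at 23.1% against 36.7%, and centring each array on its median put it at 47.2%.

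The negative genes followed a few paths. Of the 2472, 1236 were upregulated in ASP against CON and not called in ASP+CGP against CGP, with a median difference of 1.13 without the antagonist and -0.01 with it. Another 392 were called only with the antagonist, where they were downregulated by a median of -0.61 against 0.01 without. A set of 172 genes was downregulated in both arms and further with the antagonist, by a median of -1.91 against -0.87, and these genes stood 0.83 higher in CGP than in CON. In 576 genes neither arm was called on its own. The positive genes had a simpler make-up, since 909 of the 1434 rose only with the antagonist (median 0.63 against -0.02) and 107 fell only without it (median -0.67 against -0.09). For scale, 9.81% of all genes tested were upregulated and 8.13% downregulated in ASP against CON, and 8.57% and 11% in ASP+CGP against CGP.

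**Figure D1:**
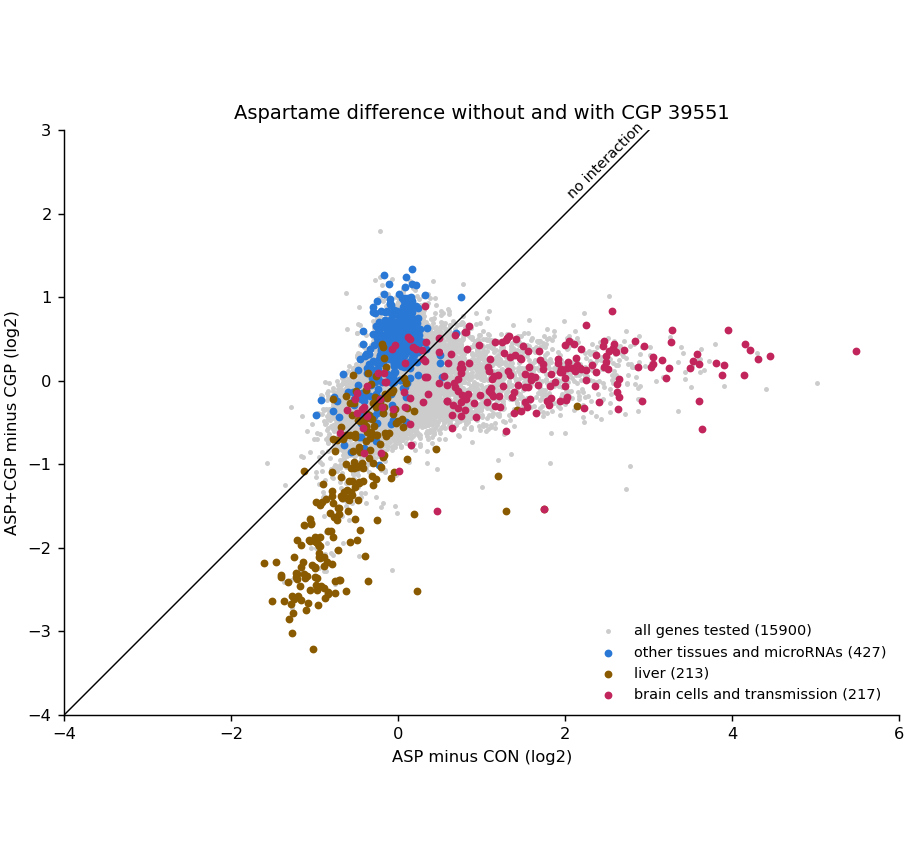
Each point is a gene, with the log2 difference ASP minus CON on the x axis and ASP+CGP minus CGP on the y axis; genes on the diagonal line have no interaction. Most of the 217 genes of the brain lists spread to the right near 0 on the y axis, most of the 213 liver genes lie below the line in the lower left, and the 427 genes of other tissues and microRNAs have a median of 0.47 above it.

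Genes of brain cells and of neurotransmission made up the strongest negative class. Of 217 genes in 13 such lists, 172 had a negative interaction (79.3%, beside 15.5% of all genes tested) and 1 a positive one, with a median of -1.45. Their median difference was 1.41 in ASP against CON and 0.08 in ASP+CGP against CGP. With the 30 forebrain and hypothalamic transcription factors, which were kept apart, the class would hold 178 negative genes of 247 (72.1%). The grouping of the lists into classes was made after their values were known, and the lists describe these pools without being an independent test.

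The most negative interaction of all genes belonged to Slc6a11 (Entrez 243616), which encodes a GABA transporter. Its log2 signals were 6.08, 5.97 and 6.05 in CON, 5.80, 5.87 and 6.03 in CGP, 11.55, 11.47 and 11.54 in ASP, and 6.28, 6.28 and 6.21 in ASP+CGP. The ASP arrays stood apart from the other 9, and an additive response would have put the ASP+CGP pool at 11.38 where 6.26 was measured. The interaction was -5.13 ± 0.09 (SE, n = 3 arrays per pool, limma adjusted p = 6.15e-14). The neuronal calcium binder Calb2 came next at -5.04 ± 0.14 (-4.34 with signals under 6 set to 6), and Gpm6a, a neuronal membrane glycoprotein, at -4.50 ± 0.08. The neuropeptide gene Sst, encoding somatostatin, reached 11.66 to 11.90 on the ASP arrays and 7.16 to 7.66 on the other 9, giving -4.15 ± 0.12.

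Receptors for the fast transmitters moved as groups. All 11 GABA-A receptor subunits tested were upregulated in ASP against CON, 10 of the 11 had a negative interaction, and the median was -2.25. Gabrb2, a beta subunit, read 5.29, 5.47 and 5.25 in CON, 5.31, 5.29 and 5.53 in CGP, 9.11, 9.44 and 9.17 in ASP, and 5.68, 5.50 and 5.51 in ASP+CGP. Its interaction was -3.72 ± 0.14, or -3.24 with signals under 6 set to 6, since only the ASP arrays rose above that level. Of the AMPA, kainate and delta receptors, 8 of 9 were negative, led by the AMPA receptor subunit Gria1 at -4.08 ± 0.15. Metabotropic glutamate and GABA-B receptors were negative in 7 of 8, with Gabbr2 at -3.41, and glycine receptors and transporters in 5 of 6.

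Among the NMDA receptor subunits, the family that CGP 39551 blocks, 4 of 6 tested had a negative interaction. Grin2b, a glutamate-binding subunit, was measured at 6.05, 5.89 and 5.90 in CON, 5.89, 5.97 and 5.97 in CGP, 8.33, 8.61 and 8.35 in ASP, and 6.26, 6.10 and 6.14 in ASP+CGP. The interaction was -2.25 ± 0.11 (limma adjusted p = 5.23e-10), and Grin3a (-1.75), Grin2a (-1.58) and Grin2d (-0.93) shared the pattern. Grin2c did not pass, with 8.41 to 8.50 in CON and 8.22 to 8.48 in ASP+CGP and an interaction of -0.20 ± 0.10 (limma adjusted p = 0.0983). Grin3b had 0.41 ± 0.12, below the fold minimum. Grin1, the obligatory subunit, was not analysed here.

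Cell markers and the machinery of release were likewise highest in the ASP pool. Neuron markers were negative in 19 of 20 genes, oligodendrocyte markers in 16 of 16 and astrocyte markers in 13 of 14. Camk2a, the kinase abundant in forebrain synapses, had an interaction of -4.04 ± 0.11, and Mbp, a structural protein of myelin, -3.35 ± 0.09. The median neuron marker lay 1.91 to 1.93 log2 units above its CON mean on the ASP arrays, and -0.03 to 0.11 from it on the CGP and ASP+CGP arrays. Oligodendrocyte markers had a mean signal of 8.80 to 8.92 in ASP and 6.87 to 7.10 elsewhere, and astrocyte markers 9.83 to 9.96 against 7.70 to 7.96. The part of these markers in the other results was not tested.

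Synaptic vesicle and exocytosis genes were negative in 27 of 29, including Cplx1 (-3.18) and Sv2a (-3.16). Sodium and calcium channels counted 18 of 25 negative and potassium channels 19 of 34, where Kcnj10, the inward rectifier of astrocytes, had -2.87. Hypothalamic neuropeptides were negative in 13 of 22. Pmch, encoding melanin-concentrating hormone, had -3.81, and Hcrt, encoding orexin, had -3.35. Hcrt was one of 6 neuropeptide genes upregulated in ASP+CGP against CGP, at 7.25 to 7.47 on the ASP+CGP arrays and 6.52 to 6.90 on the CGP arrays. The forebrain and hypothalamic transcription factors were split, with 6 negative (20%) and 3 positive (10%) of 30 and a median of -0.09. These shares are near the 15.5% and 9.02% of all genes tested. Zic2 and Zic1, which pattern the early brain, had -2.16 and -2.12.

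**Figure D2:**
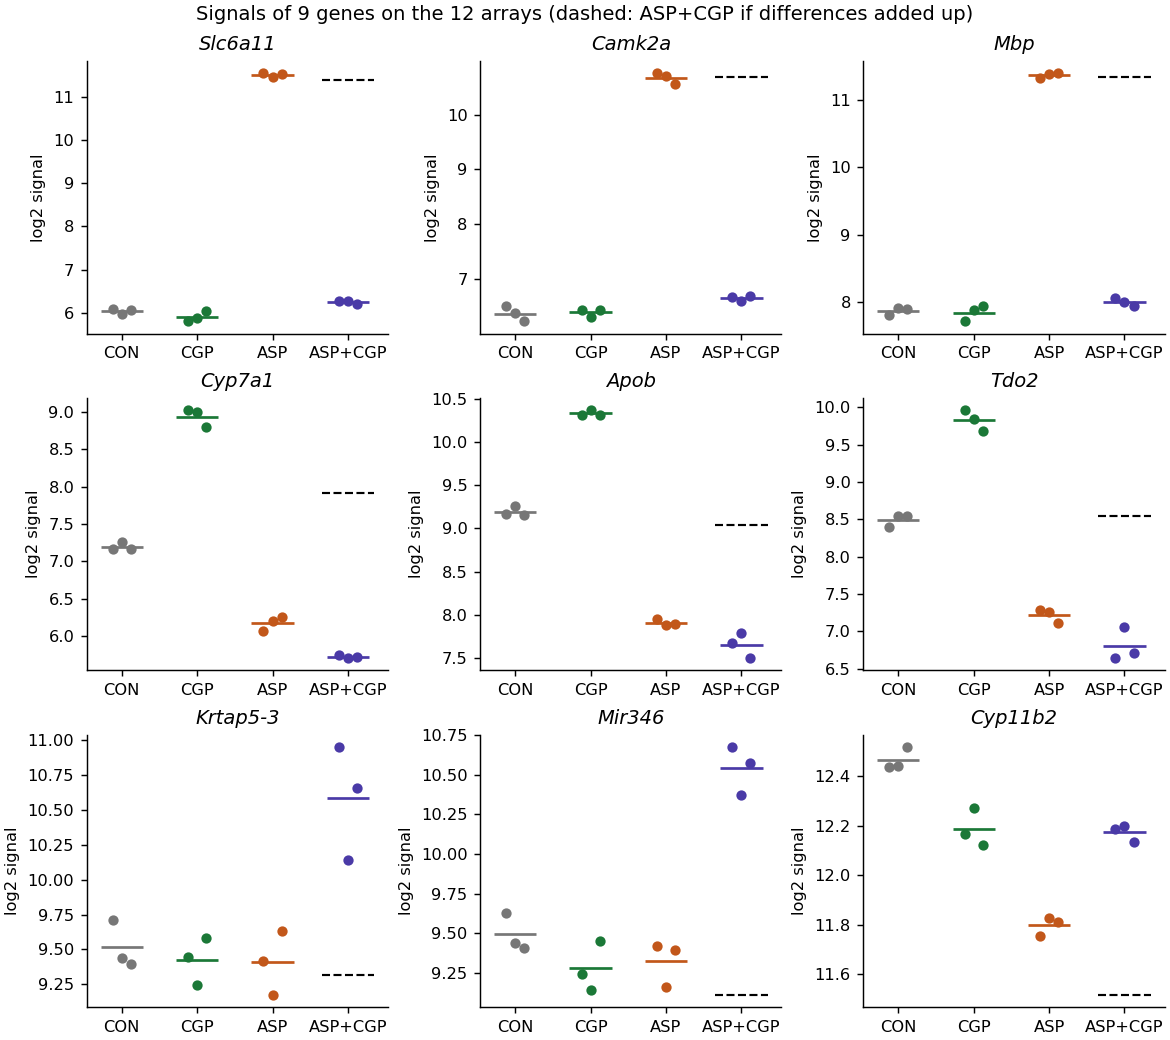
Log2 signals of 9 genes (y axis) on the arrays of each pool (x axis), where points are arrays, coloured lines are pool means and the dashed line is the ASP+CGP mean that additive effects would give. Slc6a11, Camk2a and Mbp are high in ASP only, Cyp7a1, Apob and Tdo2 are highest in CGP and lowest in ASP+CGP, Krtap5-3 and Mir346 are high in ASP+CGP only, and Cyp11b2 is lowest in ASP.

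Liver genes formed the other negative class, mostly by another path. Of 213 genes in 9 lists, 143 had a negative interaction (67.1%) and 4 a positive one, and the median was -0.75. With the liver transcription factors, which were kept apart, it would be 145 of 224 (64.7%). These genes stood higher in CGP than in CON by a median of 0.59. They were lower in ASP than in CON by a median of -0.62, and lower in ASP+CGP than in CGP by -1.37. The distance between the pools with and without aspartame was therefore wider where the antagonist had been given. Some members went another way. In ASP against CON 132 of the 213 were downregulated and 5 upregulated. The latter included Apod (2.14, interaction -2.45), Agt (1.75, interaction -3.28) and Slco1a4 (1.19, interaction -2.33), and Agt also counts among the astrocyte markers.

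Cyp7a1, which sets the rate of bile acid synthesis, was measured at 7.17, 7.26 and 7.16 in CON, 8.79 to 9.02 in CGP, 6.08, 6.21 and 6.25 in ASP, and 5.75, 5.71 and 5.72 in ASP+CGP. The pool ranges did not overlap, and the ASP+CGP mean of 5.73 stood against 7.92 for an additive response. Its interaction was -2.19 ± 0.10 (limma adjusted p = 1.99e-10), or -1.92 with signals under 6 set to 6. Cyp3a11, a P450 that oxidises drugs and steroids, was unlike most of its list in the arm without the antagonist (0.22, not called) and fell by 2.51 with it, for an interaction of -2.74 ± 0.19. Tdo2, which opens the tryptophan ring, had -1.75 ± 0.14, from 9.68 to 9.96 in CGP to 6.64 to 7.05 in ASP+CGP. Apob, the protein of very-low-density lipoprotein, had -1.39 ± 0.10 and was lower than the pool without aspartame in both arms (-1.29 and -2.67).

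By function, drug-metabolising P450 enzymes were negative in 20 of 26 genes (median -0.99) and conjugation enzymes and carboxylesterases in 22 of 33. Apolipoproteins were negative in 11 of 15, liver-made plasma proteins in 26 of 32 and coagulation factors in 16 of 18. Amino acid breakdown and urea cycle genes counted 21 of 32, and bile acid synthesis and transport genes 12 of 22. Complement components were negative in 7 of 19. Of the 12 liver transcription factors, 2 were negative, Nr1i3 (-0.60) and Hnf4a (-0.56). That is 16.7%, near the 15.5% of all genes tested, and the list median was -0.14. In ASP against CON 8 of the 12 were downregulated, and in ASP+CGP against CGP 7. Hnf4a lost its call after cyclic loess and after quantile normalization, both at -0.47, and without ASP+CGP replicate 3, at -0.44.

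**Figure D3:**
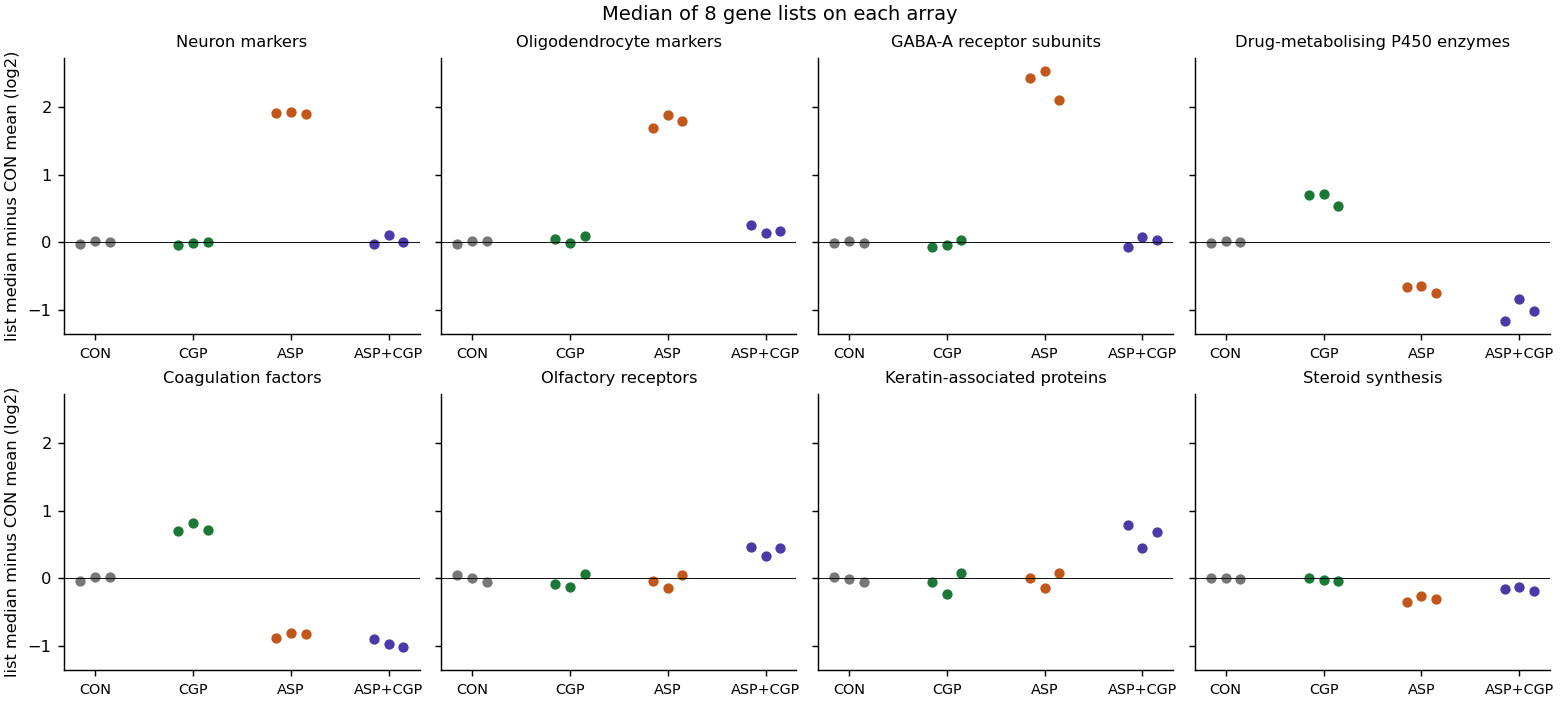
Each point is an array, and the y axis gives the median over the list of the log2 signal minus the CON mean of each gene, by pool on the x axis. GABA-A receptor subunits lie at 2.10 to 2.54 in ASP and within 0.08 of CON elsewhere, P450 enzymes at 0.54 to 0.72 in CGP and -1.17 to -0.83 in ASP+CGP, and olfactory receptors at 0.33 to 0.47 in ASP+CGP.

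The proximal promoters of the genes were read from RefSeq (GRCm38.p6), 250 bases before to 50 after the start, with 1 promoter per gene and 12504 of the 15900 genes matched. The letters GTTAAT on either strand, the core of the site bound by HNF1, a factor of hepatocytes, were present in 4.53% of all these promoters. They were present in 18.0% of the 133 promoters of genes downregulated in both arms and more so with the antagonist, in 40.0% of the 15 promoters of coagulation factors, in 5.0% of the 20 promoters of P450 enzymes and in 0 of the 11 promoters of apolipoproteins. Of all negative genes, 5.53% of promoters held the letters, and of all positive genes 6.67%. The letters were also found in 29.4% of the 17 promoters of keratin-associated proteins and in 18.2% of the 11 promoters of neuron markers. Kidney tubule markers had them in 57.1% of 7 promoters and steroid synthesis genes in 33.3% of 6. The full HNF1 palindrome, of which these letters form a part, was searched as well and was present in 0 of the 12504 promoters. The 133 promoters of genes downregulated in both arms had a median GC content of 48.0%, against 60.0% over all. The part of base composition in these shares was not tested. The letters TATAAA were found in 8.61% of all promoters, 60.0% of those of P450 enzymes, 82.4% of those of keratin-associated proteins and 4.55% of those of synaptic vesicle genes. GGGCGG, the GC box, was present in 58.4% of all promoters, 60.0% of those of negative genes and 31.6% of those of positive genes, and the positive genes had a median of 5 CG dinucleotides against 18 over all. A match is a description of letters and not of binding.

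The 250 bases before the start are shown for 3 liver-made proteins with the core letters, chosen after their values were seen. Capitals mark GTTAAT or its reverse complement. Vtn encodes vitronectin (interaction -2.04 ± 0.10), Fgb the fibrinogen beta chain (-1.16 ± 0.12) and Alb albumin (-0.75 ± 0.08).
Vtn promoter, chr11:78498870-78499119, strand +: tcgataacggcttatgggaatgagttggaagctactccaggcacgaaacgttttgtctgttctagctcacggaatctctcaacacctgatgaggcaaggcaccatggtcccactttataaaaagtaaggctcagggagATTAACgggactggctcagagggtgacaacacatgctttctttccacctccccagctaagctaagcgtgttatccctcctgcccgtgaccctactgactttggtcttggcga
Fgb promoter, chr3:83049864-83050113, strand -: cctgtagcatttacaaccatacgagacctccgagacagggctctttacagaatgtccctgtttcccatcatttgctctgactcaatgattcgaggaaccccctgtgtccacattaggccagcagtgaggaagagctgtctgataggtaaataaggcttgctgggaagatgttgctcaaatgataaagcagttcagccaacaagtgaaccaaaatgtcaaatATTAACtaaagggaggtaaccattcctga
Alb promoter, chr5:90460620-90460869, strand +: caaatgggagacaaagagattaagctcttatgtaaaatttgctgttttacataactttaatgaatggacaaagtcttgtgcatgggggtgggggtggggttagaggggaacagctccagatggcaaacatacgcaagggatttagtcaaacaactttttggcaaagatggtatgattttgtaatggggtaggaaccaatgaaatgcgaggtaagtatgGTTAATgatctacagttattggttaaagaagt

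A small number of genes changed in opposite directions in the arms. There were 57 genes called in both arms with opposite signs, 53 of them negative. Agt, the angiotensinogen gene, which both hepatocytes and astrocytes express, was measured at 9.61, 9.55 and 9.61 in CON, 10.06, 10.13 and 10.09 in CGP, 11.3, 11.35 and 11.38 in ASP, and 8.43, 8.67 and 8.58 in ASP+CGP. It was highest in ASP and lowest in ASP+CGP with no overlap, rose by 1.75 without the antagonist and fell by 1.53 with it, and had an interaction of -3.28 ± 0.09 (limma adjusted p = 2.20e-12). Slc1a2, the main glutamate transporter of astrocytes, had 3.64 without and -0.58 with. Ddah1, which degrades methylated arginines, had 2.73 and -1.30, Mal2 2.77 and -1.02, Itih3, a hyaluronan-binding plasma protein, 1.29 and -1.55, and Etnppl, a phospholyase, 1.81 and -0.98.

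**Figure D4:**
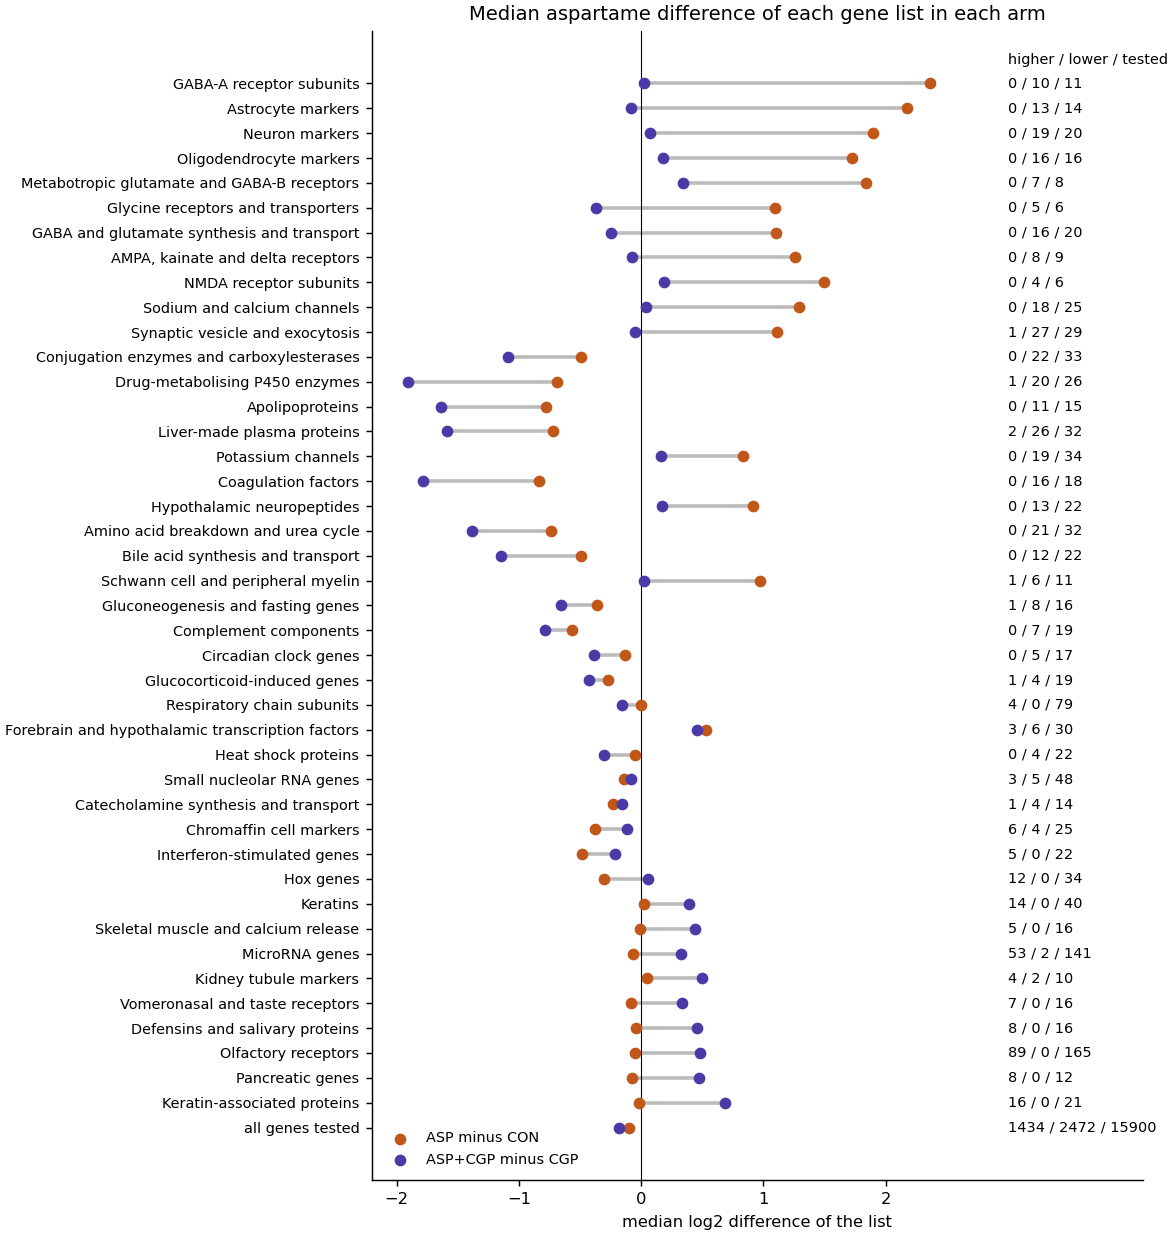
Each row is a gene list, with its median log2 difference in ASP minus CON and in ASP+CGP minus CGP on the x axis, and the number of genes with a positive interaction, a negative interaction and tested at the right. Most brain lists sit to the right of 0 without the antagonist and near 0 with it, apart from metabotropic and GABA-B receptors (0.34 with it), glycine receptors and transporters (-0.37) and forebrain transcription factors (0.46), liver lists lie left of 0 and farther with it, and lists of other tissues lie right of 0 with it only.

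Positive interactions were smaller. In 8 lists of microRNA genes and of genes of tissues other than adrenal, brain and liver, which hold 427 genes, 200 were positive (46.8%, beside 9.02% of all genes tested) and 2 negative, with a median of 0.47. These 200 are a minority of the 1434 positive genes. Several of the lists were dim, with a median CON signal of 6.10 for olfactory receptors and 6.28 for keratins. Dim genes were positive more often in general, at 20.3% of all genes with a CON mean from 6 to 7 and 22.6% under 6. The median of the 427 genes was -0.05 in ASP against CON and 0.44 in ASP+CGP against CGP. Lists of kidney tubule, pituitary and adipocyte genes were kept apart from this class. The kidney list had 4 positive and 2 negative genes of 10, the pituitary list 2 positive of 5, and the adipocyte list 0 called of 16. Keratin-associated proteins, structural parts of hair, were positive in 16 of 21 (median 0.72) and olfactory receptors in 89 of 165 (median 0.51). Pancreatic genes counted 8 of 12, defensins and salivary proteins 8 of 16, keratins 14 of 40, vomeronasal and taste receptors 7 of 16, and skeletal muscle and calcium release genes 5 of 16. No gene of the 7 lists just counted was negative. Genes could pass the filter of a mean of 6 through the ASP+CGP pool alone, so these shares are a description only. With signals under 6 set to 6 and no gene left out, 53 of 189 olfactory receptors and 14 of 23 keratin-associated proteins were positive. Keratins then counted 10 of 40 and vomeronasal and taste receptors 2 of 16, against 1174 of 16244 genes in all. Pancreatic genes counted 6 of 12, and defensins and salivary proteins 7 of 16.

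Krtap5-3 read 9.71, 9.44 and 9.40 in CON, 9.44, 9.24 and 9.58 in CGP, 9.42, 9.18 and 9.64 in ASP, and 10.95, 10.14 and 10.66 in ASP+CGP. The ASP+CGP arrays lay above all others but differed among themselves, and the interaction was 1.27 ± 0.24 (limma adjusted p = 0.000612). Ppy, encoding pancreatic polypeptide, had 1.14 ± 0.19, Trdn, the triadin of calcium release in muscle, 1.13 ± 0.18, and the olfactory receptor gene Olfr401 1.21 ± 0.14. The most positive interactions of all belonged to genes with names of the predicted (Gm) kind, which the naming rule leaves out and which were named after their values were seen. Gm10548 had 2.01 ± 0.18, the single gene past 4-fold upwards, and Gm5592 had 1.68 ± 0.16. Macrod2 had 1.49 ± 0.30, which fell to 0.40 and lost its call when the probe sets of the gene were averaged. Pate11 had 1.46 ± 0.29 and Ctrc, a digestive protease, 1.35 ± 0.12.

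The microRNA genes were positive in 53 of 141 and negative in 2, with a median of 0.40. The array reads the region of the gene and not the processed microRNA. Mir346 was measured at 9.63, 9.44 and 9.41 in CON, 9.24, 9.14 and 9.45 in CGP, 9.42, 9.16 and 9.40 in ASP, and 10.68, 10.37 and 10.58 in ASP+CGP. The ASP+CGP arrays stood above the other 9, and the interaction was 1.43 ± 0.14 (limma adjusted p = 1.36e-06). Mir692-1 had 1.22 ± 0.14, Mir455 1.09 ± 0.15 and Mir383 1.05. Mature sequences from RefSeq (GRCm38.p6) matched 48 of the 55 called genes, with 83 distinct seeds, of which 7 were shared by more than 1 called gene. Mir195a and Mir497 shared AGCAGCA, Mir106b and Mir93 shared AAAGUGC, and Mir196a-1 and Mir196b shared AGGUAGU. The products of the most positive genes are shown with the seed, bases 2 to 8, in capitals, because they share no seed with each other.
mmu-miR-346-5p: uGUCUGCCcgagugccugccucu
mmu-miR-346-3p: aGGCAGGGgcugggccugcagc
mmu-miR-692: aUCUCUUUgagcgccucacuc
mmu-miR-455-5p: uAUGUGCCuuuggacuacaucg
mmu-miR-455-3p: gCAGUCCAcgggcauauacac

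The positive calls lay at the dim end of the arrays. Of the 1434, 853 had a CON mean under 7 (59.5%), against 571 of the 2472 negative genes. The median interaction of all genes was 0.27 for CON means under 6, 0.25 from 6 to 7, -0.17 from 9 to 10 and -0.01 at 12 and above. After cyclic loess it was 0.00 from 6 to 7 and -0.02 from 9 to 10. For CON means under 6 it was -0.30 after cyclic loess, with 239 negative and 5 positive genes of 566. With that scaling 4.61% of 15816 genes tested were positive. Olfactory receptors were then positive in 20 of 137, keratin-associated proteins in 12 of 21, pancreatic genes in 4 of 12, and defensins and salivary proteins in 4 of 15. Muscle genes were positive in 4 of 15, keratins in 2 of 36, and vomeronasal and taste receptors in 1 of 14, with 1 gene of each of these 3 lists then negative. MicroRNA genes were positive in 35 of 144 and negative in 4. The part of the narrower ASP+CGP signals in these calls was not tested. After cyclic loess, 20 of 20 neuron markers, 10 of 11 GABA-A receptor subunits and 21 of 25 P450 enzymes were negative, beside 15.3% of all genes tested. Hypothalamic neuropeptides were then negative in 12 of 22 and complement components in 9 of 19.

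**Figure D5:**
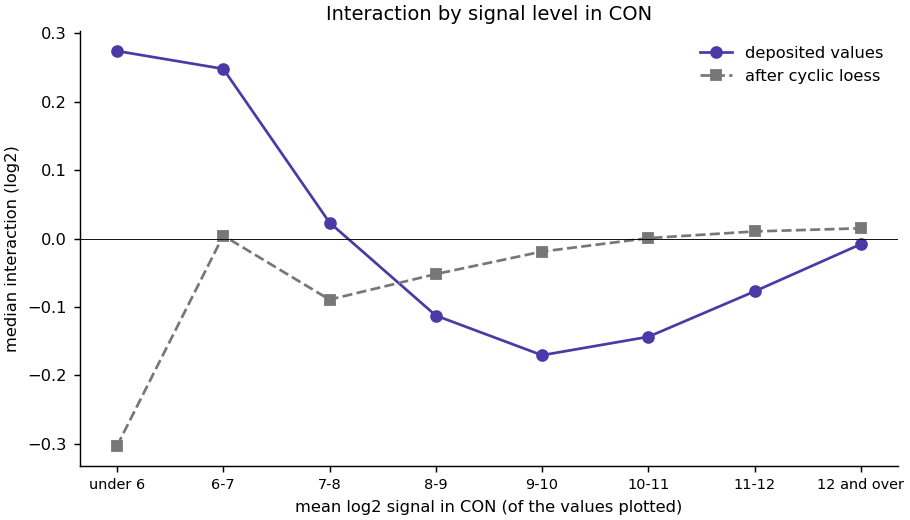
The y axis gives the median interaction (log2) of all genes tested within each range of mean CON signal on the x axis, for the deposited values and after cyclic loess. In the deposited values dim genes lie at 0.25 to 0.27 and genes between 9 and 10 at -0.17, and cyclic loess brings all ranges but the dimmest within 0.10 of 0.

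Of 16 steroid synthesis genes, 2 were called, both positive (12.5%, beside 9.02% of all genes tested), and the median was 0.17. The list was bright, with a median CON signal of 12.15. Among all genes with a CON mean of 12 or more, 0.77% were positive. Cyp11b2, the aldosterone synthase of the outer cortex, read 12.44, 12.44 and 12.52 in CON, 12.17, 12.27 and 12.12 in CGP, 11.76, 11.83 and 11.81 in ASP, and 12.19, 12.20 and 12.14 in ASP+CGP. The ASP arrays were lowest and the CGP and ASP+CGP arrays overlapped, so that aspartame went with -0.67 without the antagonist and -0.01 with it, and the interaction was 0.66 ± 0.08 (limma adjusted p = 1.24e-05). Hsd3b6, a dehydrogenase of the same zone, had 0.54 ± 0.09. The interaction was 0.17 for Star, 0.11 for Cyp11a1, 0.13 for Cyp11b1, 0.13 for Cyp21a1 and 0.08 for Hsd3b1, with standard errors of 0.07 to 0.09, and none of these passed.

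Of 25 chromaffin cell markers, 6 were positive (24%, beside 9.02% of all genes tested) and 4 negative (16%, near the 15.5% of all genes tested). Their median CON signal was 10.12, and among all genes with a CON mean from 10 to 11, 1.18% were positive and 13.4% negative. Catecholamine synthesis and transport genes were negative in 4 of 14 and positive in 1. Chrnb4, a nicotinic receptor subunit that receives the splanchnic signal, had 0.69 ± 0.09, from 9.31 to 9.39 on the ASP arrays and 10.02 to 10.23 on all others. Phox2a, a transcription factor of noradrenergic cells, and Slc18a1, which loads catecholamines into vesicles, both had 0.59. Phox2a was named in addition to the genes that the naming rule gives. The negative ones included Ret (-1.48), Scg3 (-1.28) and Penk (-1.21), which brain neurons express as well, and these were upregulated in ASP against CON. Th (0.47 ± 0.07) and Dbh (0.45 ± 0.07) had limma adjusted p of 0.000147 and 0.000195 but stayed under the fold minimum, as did Pnmt (0.19) and Chga (0.22). Slc6a3, the dopamine transporter, was negative at -2.52, as were Qdpr at -0.77 and Maob at -0.66.

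Other lists showed smaller shifts, to be read beside 9.02% positive and 15.5% negative of all genes tested. Hox genes were positive in 12 of 34 (median 0.37), led by Hoxb3 at 0.71, and 8 were positive after cyclic loess. Interferon-stimulated genes were positive in 5 of 22 (22.7%), with Oas2 at 0.79. Circadian clock genes were negative in 5 of 17 (29.4%), with Ciart at -1.67 and Cry2, a repressor of the clock, at -1.10. None of the 54 cytosolic ribosomal proteins, 19 endothelial markers or 16 adipocyte markers was called for the interaction by limma at the fold minimum.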

How the data were processed

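Adrenal RNA pools of 4 groups were measured on 12 arrays. The authors deposited log2 signals per probe set, which were made with RMA in Partek (background correction, quantile normalization and median polish), with values that stayed under 6 set aside. There is no read depth, and precision depends on the number of arrays. Of 26533 probe sets, 17710 listed 1 gene, 1077 several and 7746 none, by the platform annotation. Each gene was represented by whichever of its single-gene probe sets was brightest on average, and 344 genes with a mean under 6 in every pool were left out.

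A model with a mean for each pool was fitted to all 12 arrays in limma 3.58.1 (R 4.3.3, data.table version 1.17.8) with empirical Bayes moderation. Contrasts were ASP minus CON, ASP+CGP minus CGP, and their difference. Benjamini-Hochberg adjustment was applied within a contrast, and calls required an adjusted p under 0.05 with at least 1.4-fold, the thresholds of the study's methods. The steps were tested on simulated data. The members, gene lists and naming rule were chosen with earlier results of these data known. The rule named the 10 most positive and 10 most negative genes other than predicted, clone-named, small RNA and olfactory or vomeronasal genes, up to 4 called members of each list, all NMDA receptor subunits, set adrenal genes, and up to 6 genes called in opposite directions; the promoters and shared seeds were added after their values were seen. No p-value was computed over a list. Alternatives covered the filter, scaling, floor, moderation, adjustment, fold minimum, probe set choice, replicate number and leaving out each array.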

Additional observations from a re-analysis of the deposited data

Results flagged for a closer look

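The aspartame difference differed between the arms with and without the antagonist in 1434 genes upwards and 2472 downwards, by limma's test of that difference. Of these, 57 genes were called in opposite directions in the arms. The largest interactions among them were those of Slc1a2 (-4.21), Ddah1 (-4.02), Mal2 (-3.79), Agt (-3.28), Itih3 (-2.84) and Etnppl (-2.80).

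Probe sets outside the gene counts also departed from additivity. Of 7228 tested probe sets with no listed gene, 1474 were positive and 527 negative, and of 1050 with several listed genes, 126 were positive and 103 negative. Positive calls outnumbered negative ones in both kinds, unlike among the 15900 genes tested, where 9.02% were positive and 15.5% negative.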

How the results depend on the processing

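The counts of positive and negative interactions were 729 and 2427 after cyclic loess, 866 and 2343 with a mean of at least 7, 3487 and 4688 with no fold minimum, and 127 and 1196 at 1.8-fold. Cyclic loess shared 558 positive and 2088 negative genes with the deposited scaling. In ASP against CON, 481 genes were lower after cyclic loess, 2801 higher and 5987 lower with no fold minimum, and 937 and 139 at 1.8-fold. In ASP+CGP against CGP, the higher and lower counts were 817 and 820 after cyclic loess, 901 and 963 after quantile normalization, 3783 and 8244 with no fold minimum, and 107 and 315 at 1.8-fold, with 841 higher at a mean of at least 7 and 982 lower after centring. Leaving out each array in turn gave 1196 to 1755 positive and 2350 to 2703 negative interactions, 1545 to 1597 higher and 1178 to 1463 lower genes in ASP against CON, and 1122 to 1760 higher and 1419 to 2363 lower in ASP+CGP against CGP. Medians near 0 changed sign: that of all genes was 0.0252 after centring and 0.0379 after quantile normalization, that of ribosomal proteins 0.0333 after centring, 0.0285 after cyclic loess and 0.0533 after quantile normalization, and that of immediate early genes 0.0475 after quantile normalization. The cause was not tested. Of 199 called named genes, 133 were tested and called under every alternative, and 21 were not tested under all of them, of which 7 lost their call in none where they were tested. With the replicate number as a block, 1435 interactions were positive and 2470 negative. The labels give the numbers no meaning. Deviations of same-numbered arrays correlated at -0.15 to 0.38, and 7 of 12 arrays correlated best with their own number. Since not every pair was over 0.1, no pairing was applied.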

Other observations

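Some lists of general cell functions and of minor cell types were not part of the account above or were only counted there. Over all genes tested, 15.5% were negative and 9.02% positive. Schwann cell and peripheral myelin genes had a negative interaction in 6 of 11 and a positive one in 1, with S100b at -2.18 and Drp2 at -1.77. Heat shock proteins were negative in 4 of 22 (18.2%, near that background), led by the chaperone Cryab at -1.05. Glucocorticoid-induced genes were negative in 4 of 19 and positive in 1, with Tat at -0.81, and cholesterol synthesis genes were negative in 1 of 19, Hmgcs1 at -0.78. The respiratory chain list of 79 genes had 4 positive members (5.06%, under the background), among them Cox8c (0.75), Cox7a1 (0.67) and Cox4i2 (0.55). Kidney tubule markers were positive in 4 of 10, with Umod at 0.97, and negative in 2, Calb1 (-3.35) and Slc22a8 (-1.15), which the brain also expresses.

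Of 26 collagen and stroma genes 1 was negative, Fn1, the fibronectin gene, at -1.28, and 1 was positive, Adamts9 at 0.59, which lost its call with its probe sets averaged and without ASP+CGP replicate 2, at 0.48 in both. Macrophage and microglia markers were positive in 2 of 23 (8.70%), Clec4f (0.50) and Mrc1 (0.49), and both lost their call after cyclic loess, at 0.26 and 0.32.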
